A study of Homo sapiens with 2 samples.

Results

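TP73 ChIP peaks were examined at 8 genes of DNA repair and stress defence that are known targets of p53: XPC, DDB2, POLH, PCNA, RRM2B, SESN1, SESN2 and FDXR. A peak was counted as a member when its summit lay in the hg19 span of a gene or within 20 kb of it. The windows together covered 0.622 Mb and held 19 of the 18908 peaks in the list. The rule used gene names and positions and no measured value, but the genes were chosen with earlier results of these data known. The study held 1 ChIP library, made with an antibody against TP73 (ab14430), and 1 input library of whole cell extract. Both came from TL-Om1, an adult T-cell leukaemia line established from human cells, grown in RPMI-1640 with 10% serum and fixed with formaldehyde for 10 min. It is 1 line, and every value below comes from 1 ChIP library over 1 control, so no difference has a replicate error.

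TP73 is a transcription factor of the p53 family and binds nearly the same DNA element as p53. That element is a pair of half-sites, each a decamer with a C and a G around 2 A or T bases at its core. DNA damage raises p53-family activity at genes that recognise lesions, copy past them or supply nucleotides for repair, and at genes that limit oxidative and metabolic stress. XPC and DDB2 find damaged bases for nucleotide excision repair. POLH is the polymerase that copies across ultraviolet lesions, and PCNA is the sliding clamp that holds polymerases on DNA. RRM2B is the p53-inducible small subunit of ribonucleotide reductase. SESN1 and SESN2 are sestrins, which restrain mTORC1 and oxidative stress, and FDXR is the mitochondrial reductase that passes electrons to ferredoxins.

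The promoter sequences of these genes were taken from RefSeq (GRCh38.p14), which had an entry for 7 of the 8 genes and 12 start sites in all. Each entry runs from 250 bases before a start to 50 after it, so that base 251 of an entry, the first of the transcript, is position 1. All were searched for the exact p53-family half-site, a palindromic pattern that reads alike on both strands. The 4 entries shown are all those with an exact half-site, and the half-sites are in capitals:
DDB2, the second start, chr11:47214724-47215023, plus strand: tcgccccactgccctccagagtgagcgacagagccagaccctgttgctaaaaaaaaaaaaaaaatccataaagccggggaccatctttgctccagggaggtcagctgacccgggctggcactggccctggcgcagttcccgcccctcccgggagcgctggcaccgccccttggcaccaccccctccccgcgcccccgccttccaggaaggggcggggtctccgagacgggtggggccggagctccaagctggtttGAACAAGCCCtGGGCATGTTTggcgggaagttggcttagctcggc
PCNA, the second start, chr20:5119909-5120208, minus strand: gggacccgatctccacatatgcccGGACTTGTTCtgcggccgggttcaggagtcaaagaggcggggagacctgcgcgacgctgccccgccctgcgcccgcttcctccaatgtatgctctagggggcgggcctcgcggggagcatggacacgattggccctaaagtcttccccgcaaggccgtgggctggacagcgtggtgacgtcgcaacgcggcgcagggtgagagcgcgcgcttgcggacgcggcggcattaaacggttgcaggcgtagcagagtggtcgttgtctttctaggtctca
FDXR, the first start, chr17:74872945-74873244, minus strand: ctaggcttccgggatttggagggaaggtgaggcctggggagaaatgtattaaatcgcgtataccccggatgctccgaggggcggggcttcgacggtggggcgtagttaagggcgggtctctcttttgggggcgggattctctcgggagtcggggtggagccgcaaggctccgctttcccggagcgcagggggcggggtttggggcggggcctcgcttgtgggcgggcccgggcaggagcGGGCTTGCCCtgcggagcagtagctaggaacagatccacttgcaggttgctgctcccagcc
SESN1, the third start, chr6:109008939-109009238, minus strand: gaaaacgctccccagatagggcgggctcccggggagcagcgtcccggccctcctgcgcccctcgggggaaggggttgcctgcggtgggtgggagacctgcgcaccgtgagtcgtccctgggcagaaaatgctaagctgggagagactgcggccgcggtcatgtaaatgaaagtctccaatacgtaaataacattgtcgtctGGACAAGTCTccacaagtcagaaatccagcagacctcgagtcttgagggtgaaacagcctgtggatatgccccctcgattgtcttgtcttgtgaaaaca

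The DDB2 entry was the only one of the 12 with a full element, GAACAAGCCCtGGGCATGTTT, in which a spacer of 1 base parts the half-sites. It began at position 6. The half-site GGACTTGTTC of PCNA began at position -226 of the second start, GGGCTTGCCC of FDXR at position -11 of the first start, and GGACAAGTCT of SESN1 at position -49 of the third start. No exact half-site was found in the windows of XPC, SESN2 or POLH, or at the other starts of DDB2, PCNA, FDXR and SESN1. In the whole table of 35116 promoters, 6.63% held a half-site and 0.0285%, or 10 promoters, held a full element with a spacer of up to 13 bases. Genes with several entries have more sequence to match: 8.06% of the 27305 genes had a half-site at any start. The peaks lie on hg19, whose sequence was not used here, so a half-site in a promoter entry is not a statement about what lies under a summit.

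At least 1 TP73 peak was found at 7 of the 8 genes, and at POLH none. The counts were 5 at DDB2, 3 each at XPC, PCNA and SESN2, 2 each at RRM2B and SESN1, and 1 at FDXR. Of the 19 summits, 14 lay inside a gene span, 3 upstream and 2 downstream. When each chromosome was cut end to end into tiles as long as the gene's window, 28.6% of 16337 tiles held a peak. These tiles include gene-poor sequence and assembly gaps, so they are a low background for a gene. Peak density over the windows was 30.5 per Mb (exact 95% Poisson interval 18.4 to 47.7, counting error only), against 6.41 per Mb over the autosomes and X. The surroundings of these genes were dense too. The 500 kb on each side of the windows held 12 peaks per Mb, and this density, taken gene by gene and applied to the window lengths gave 7.54 peaks where 19 were found.

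**Figure D1:**
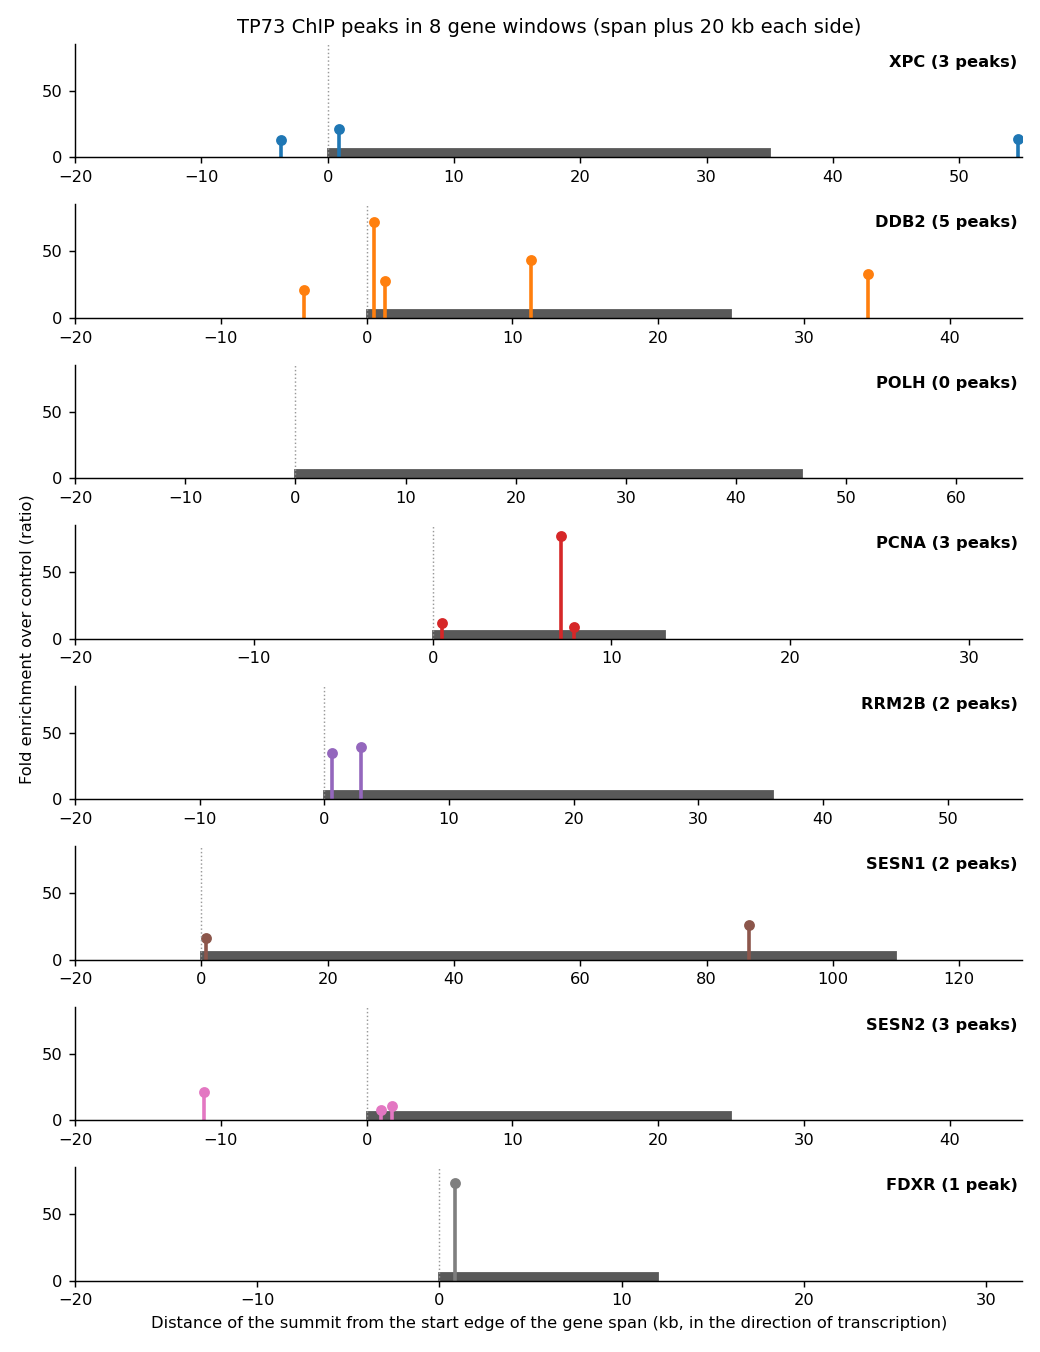
Position and fold enrichment of every TP73 peak in the 8 gene windows. The horizontal axis is how far the summit lies from the start edge of the gene span, in kb along the direction of transcription, and the grey bar is the gene span. Stems give the fold over the control. A stem stands near the start edge in 7 panels, the tallest stem of PCNA is 7.17 kb inside the gene, and the POLH panel is empty.

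Summits gathered at the start of these genes, a feature the rule did not use but that was examined after the values were seen. The spans are given to 1 kb, so each edge is known to about 0.5 kb. A summit lay within 2 kb of the start edge at 7 of 8 genes, with 9 summits in all, and within 1 kb at 6 of 8. Within 2 kb of the opposite end there was a summit at 0 of 8 genes. For comparison, 2.46% of 4 kb tiles on the same chromosomes held a peak. The share over all gene starts was not computed, because hg19 start sites were not used here, so it cannot be said whether these genes differ from other genes in this. Several starts are also shared. In the RefSeq annotation (GRCh38) another protein-coding gene lies upstream within 1 kb of XPC (LSM3, 0.216 kb), PCNA (CDS2, 0.386 kb), SESN1 (CEP57L1, 0.317 kb) and POLH (XPO5, 0.147 kb). A peak there cannot be assigned to 1 gene of the pair by position. DDB2 and SESN2 have no protein-coding neighbour upstream within 20 kb.

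The member peaks were mostly stronger than the list as a whole. Their median fold enrichment, a ratio of ChIP to control at the summit as the authors' peak caller gave it, was 21.2 (exact 95% interval of the median 13.8 to 34.9, over 19 peaks), against 11.3 over all peaks. The fold was above 11.3 at 16 of the 19 peaks, where 49.9% of the list is. It reached 10 at 17 peaks, where 59.8% of the list does, 20 at 12 peaks, where 23.0% of the list does, and 50 at 3 peaks, where 3.54% of the list does. Peaks at 1 gene share a locus and are not independent, so no test was made of these shares. The interval of the median is exact only for independent peaks, so it may be too narrow here. Each of the 7 gene windows with a peak held one of at least 20-fold, although the strongest peak of a window is picked for its height. The share of other windows that hold such a peak was not computed, so this count has no background. At SESN2 that peak lay 11.2 kb upstream of the span.

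**Figure D2:**
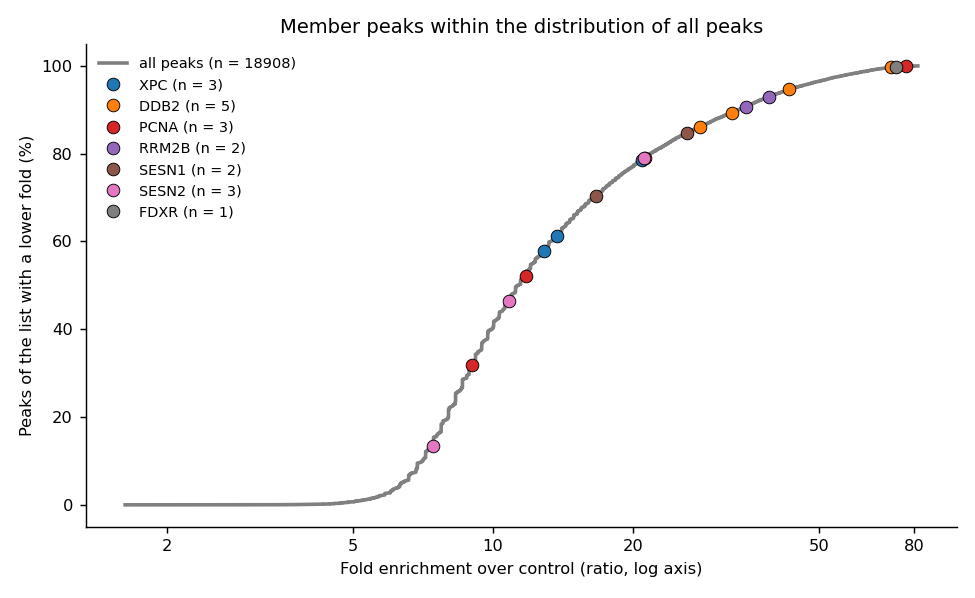
Cumulative distribution of the fold enrichment over all 18908 peaks (grey line), with the 19 member peaks placed on it by gene. The horizontal axis is the fold on a log scale and the vertical axis the percentage of the list with a lower fold. The peaks of DDB2, PCNA and FDXR above 70-fold sit at the top end, and 3 peaks of SESN2 and PCNA below 11-fold sit under the median of the list, 11.3.

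Of the nucleotide excision repair genes, DDB2 carried the most peaks of the 8. DDB2, which encodes the lesion-binding subunit of the UV-DDB complex, had its strongest peak at chromosome 11, 47236255 to 47236970, 0.535 kb inside the start edge. The fold there was 71.6 (−log10 q-value 378.3), which ranks 60th of 18908 by fold. A second, lower peak followed 738 bp further on with a fold of 27.8. Another stood 11.3 kb into the gene, at 47247131 to 47247500, with a fold of 43.2. The other peaks of the DDB2 window lay outside the gene. One was 4.29 kb upstream with a fold of 21.2, and one 9.38 kb beyond the far end with a fold of 32.6. All 5 DDB2 peaks were thus above the upper quartile of the list, 18.7. The downstream peak cannot be tied to DDB2 by position, since ACP2 and NR1H3 lie downstream of DDB2 within 20 kb in the RefSeq annotation. Of tiles of the same length on chromosome 11, 0.920% held 5 or more peaks, a count that includes both peaks of the pair 738 bp apart. DDB2 is picked here as the gene with the most peaks. At the other genes with a peak, the share of tiles with at least as many peaks ran from 3.45% (XPC) to 31.7% (FDXR).

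XPC, which encodes the sensor that starts global-genome repair, carried peaks of lower fold. Its strongest peak, at chromosome 3, 14219903 to 14220350, had a fold of 20.9 and a summit 0.925 kb inside the start edge. A second peak 3.67 kb upstream of the span had a fold of 12.8. The last lay 19.6 kb beyond the far end with a fold of 13.8. Neither of these outer peaks can be tied to XPC by position. In the RefSeq annotation LSM3 lies 0.216 kb upstream of XPC and TMEM43 1.467 kb downstream. By reads the order of the first and second peak is not resolved. Intervals of reads here and below cover counting error at single summits of 1 library only, and reads that are copies of 1 molecule would make them too narrow. The upstream summit had 78 ChIP reads (exact 95% Poisson interval 61.7 to 97.3) and the summit in the gene 72 (56.3 to 90.7). The upstream fold is lower because a control background of 5 reads, the highest of any member, stood against 2.41 at the peak in the gene. The XPC surroundings were sparse, with 4 peaks per Mb in the 500 kb on each side.

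Among the genes of replication past damage, PCNA and POLH stood at opposite ends. PCNA held the strongest member peak, at chromosome 20, 5100540 to 5101114, where the fold was 77.0 (−log10 q-value 415.9), which ranks 20th of 18908 by fold. Its summit was 7.17 kb inside the start edge. The peak nearest to that edge, at 5107297 to 5107630, had a fold of only 11.7. These summits were 6633 bp apart on hg19, and the 2 start sites of PCNA in RefSeq are 6664 bp apart on GRCh38. The strong peak is therefore spaced from the weak one about as the second start, whose promoter is shown above, is from the first. The distances were measured within each build and no position was converted. The weakest PCNA peak lay 743 bp beyond the strong summit with a fold of 9.03, and 31.9% of the list had a lower fold.

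POLH had no peak in its 86 kb window. The nearest summit was 105.1 kb outside the gene span, with a fold of 8.60 and 29 ChIP reads. Of tiles of that length on chromosome 6, 75.2% also held no peak, but these tiles include gene-poor sequence and assembly gaps. The 500 kb on each side of the window held 7 peaks per Mb, which gave 0.602 peaks for a window of this length. Sites below the caller's limit were not analysed here, and the weakest peak of the whole list had 18 ChIP reads.

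RRM2B, which supplies deoxynucleotides outside S phase, had a pair of peaks of similar height in the first 3 kb of the gene. The peak at chromosome 8, 103248887 to 103249253, had a fold of 39.1 and a summit 2.93 kb inside the start edge. The peak at 103250841 to 103251687 had a fold of 34.9 and a summit 0.598 kb inside that edge. It was the widest member peak, at 847 bp, against a median of 334 bp over the members and 255 bp over the list. ChIP reads were 153 (129.7 to 179.3) at the first and 121 (100.4 to 144.6) at the second, and these intervals overlap. At the lower of them the fold was above 90.7% of the list. RRM2B has no entry in the promoter table.

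The sestrin genes carried peaks of lower fold than DDB2, PCNA, FDXR or RRM2B at their strongest. SESN1 had a peak at chromosome 6, 109330106 to 109330382, with a fold of 26.1, and one at 109416104 to 109416376, with a fold of 16.6. The second lay 0.78 kb inside the start edge, whereas the first lay 86.8 kb into the gene, 85979 bp from it. In RefSeq the second and the third SESN1 start are 85294 and 85858 bp from the first on GRCh38, and 564 bp from each other. The stronger peak is thus spaced from the weaker one about as this inner pair of starts is from the first, and it cannot be assigned to either of the pair. The entry of the third start, shown above, holds the half-site GGACAAGTCT, and the entries of the first and the second hold none. The surroundings of SESN1 were as dense as its window, with 2.1 peaks predicted from the 500 kb on each side and 2 found.

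SESN2 had its strongest peak outside the gene. At chromosome 1, 28573696 to 28574038, 11.2 kb upstream of the span, the fold was 21.1. The pair near the start was weak, with folds of 7.42 and 10.8 at 1.01 and 1.76 kb inside the edge. The peak of 7.42 was the lowest of all members, and 13.4% of the list had a lower fold. No protein-coding neighbour lies within 20 kb of SESN2 in the RefSeq annotation. That distance is taken from the gene, and genes further upstream, which could lie as near to the upstream peak, were not examined. The upstream peak therefore cannot be assigned to SESN2 by position.

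FDXR, which serves steroid and iron-sulphur synthesis in mitochondria, had 1 peak, and it was among the strongest of the list. At chromosome 17, 72868886 to 72869517, the fold was 73.2 (−log10 q-value 405.4), which ranks 45th of 18908 by fold. The summit lay 0.867 kb inside the start edge, and the nearest other summit of the list was 82341 bp away. The exact half-site of FDXR is in the entry of the first start, shown above. That entry is on GRCh38 and no position was converted, so whether the summit lies at this half-site was not tested.

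**Figure D3:**
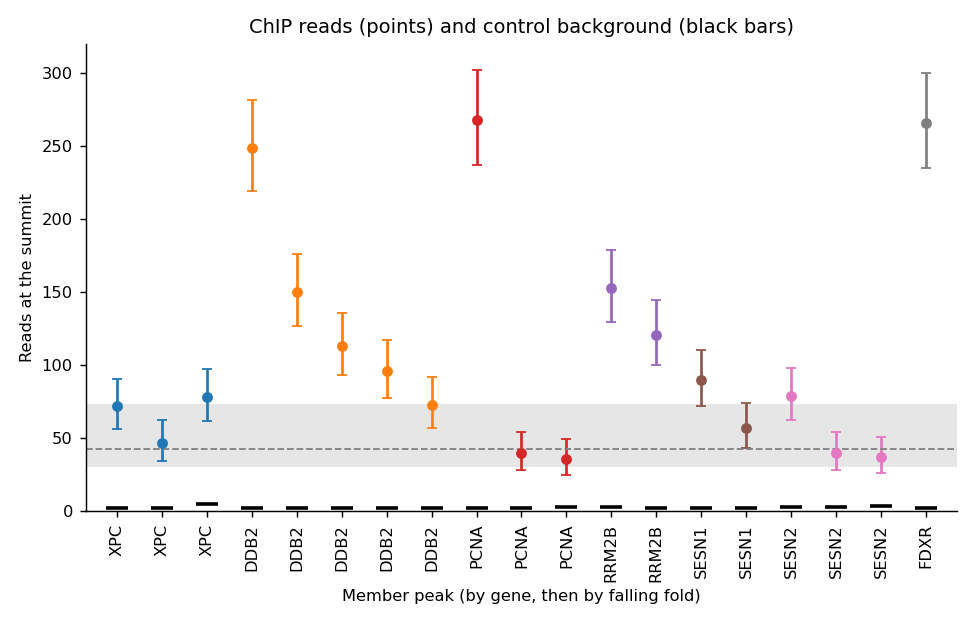
ChIP reads at the summit of each member peak (points), with exact 95% Poisson intervals, and the control background in reads (black bars). This background is the level the caller scored the summit against, which need not equal the control reads counted there. The dashed line and grey band are the median and quartiles of ChIP reads over all peaks, 43 and 31 to 73. The intervals of the leading peaks of DDB2, PCNA and FDXR, which cover counting error only, overlap each other and lie above those of every other member, and the background stays between 2.41 and 5 reads throughout.

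Summits carried 268 ChIP reads (236.9 to 302.1) at PCNA, 266 (235.0 to 299.96) at FDXR and 249 (219.0 to 281.9) at DDB2. Their intervals overlap, so the order among these genes is not resolved, and the highest count of the whole list was 284. RRM2B followed with 153 reads (129.7 to 179.3), an interval that does not reach those of the other 3 within counting error. Without a second ChIP library, whether this order would recur was not tested. The strongest peaks of SESN1, SESN2 and XPC by fold had 90 (72.4 to 110.6), 79 (62.5 to 98.5) and 72 (56.3 to 90.7) reads, and these overlap too. Over the 19 members the median was 79 reads against 43 over the list. The control background was at the genome-wide level of 2.41 reads at 11 members (57.9%), where 51.9% of the list is. That level is the lowest background the caller used, so fewer control reads at these summits would not show.

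**Figure D4:**
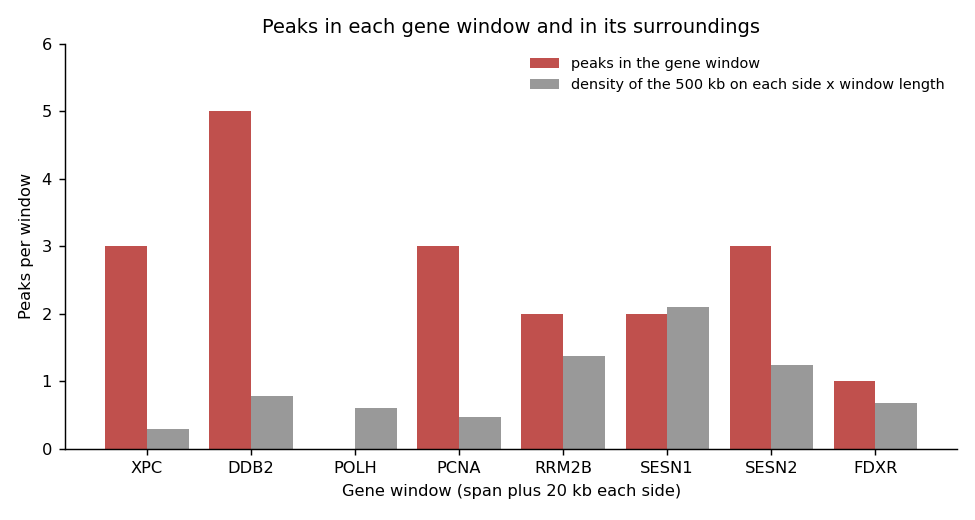
Peaks found in each gene window (red) beside the number given by the peak density of the 500 kb on each side times the window length (grey). The vertical axis is peaks per window. DDB2 shows 5 against 0.780, XPC 3 against 0.300 and PCNA 3 against 0.477, while SESN1 shows 2 against 2.1 and POLH 0 against 0.602.

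Close pairs of summits were common at these genes. Another summit lay within 1 kb of 6 of the 19 member peaks (31.6%), where 13.3% of the list has one. They formed 3 pairs, 738 bp apart at DDB2, 743 bp at PCNA and 750 bp at SESN2. In the DDB2 and PCNA pairs a dominant peak of over 70-fold stood beside one of 27.8 and 9.03, whereas both SESN2 peaks were below the median of the list. Whether the caller split 1 enriched region in these cases was not tested.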

How the data were processed

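DNA from 1 TP73 ChIP library and 1 input library was sequenced as single-end reads of 50 bases, per the labels' protocols. Bowtie2, SAMtools and MACS2 2.1.1.2016030 are named with hg19, per the submitters' processing notes, and their settings are not stated there. The authors deposited 1 peak list, with a fold (ratio over the control), a −log10 p-value, a −log10 q-value, a score and a summit for each peak. The labels name input as the control, but all 18908 deposited peak names contain IgG, so the control library is not settled here.

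ChIP reads and control background were solved from fold and p-value by the formulas of MACS2, and the solver and the motif search were tested on simulated data. All 18908 peaks had a solution. One ChIP read was worth 0.975 units of pileup, and 100% of 9088 peaks not used to find that value gave whole reads within 0.01. The 101 peaks with more than 1 solution took the one nearest to whole reads.

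Strands came from the RefSeq promoter table, and for RRM2B from general knowledge. Positions are on hg19 and counted from 1 unless GRCh38 is named. All 8 genes and all their peaks are named, by a rule. The genes, windows and lists were chosen with earlier results of these data known, and the distance to the start edge, the surroundings of 500 kb, the 4 kb tiles and the spacing of starts were added after the values were seen. Other genes of the pathway were not analysed here, since hg19 annotation was not used. The tools were matplotlib 3.10.9, scipy 1.17.1, pandas 2.3.3, numpy 2.4.6 and Python 3.11.15.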

Additional observations from a re-analysis of the deposited data

How the results depend on the processing

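The count of genes with a peak was 7 of 8 under each of 8 other settings: 0, 5 or 50 kb beyond the span, a −log10 q-value of at least 10 or 20, a fold of at least 5, merging of summits closer than 500 bp, and any overlap of at least 1 bp. Only the 0 and 5 kb limits and the −log10 q-value of at least 20 removed member peaks. The limit of 50 kb could not add POLH, whose nearest summit was 105.1 kb outside the span. The remaining settings left the 19 member peaks unchanged, so they could not alter this count. Member peaks ranged from 14 (span only) to 26 (50 kb), and their median fold from 16.0 (50 kb) to 26.9 (span only). Density rose to 46.4 per Mb with the span only, because 14 of the 19 summits lie inside the spans. An exact half-site was found at 4 of the 7 genes with a promoter entry, where 8.06% of all genes have one. By promoter it was 4 of 12, where 6.63% of all promoters have one. Each of these 4 genes has more than 1 entry, whereas XPC, SESN2 and POLH have 1 each. The genes were chosen as known targets of p53, so no test was made of this share. With 1 mismatch the count was also 4 of 7 genes (7 of 12 promoters), near the share of all genes, 50.1% (45.1% of promoters), so it says nothing particular of the members. A full element was found at 1 gene. Summits near the opposite end of the span were found at 0 genes, against 7 near the start. No paired analysis was possible because only 1 ChIP library was made, and for the same reason no library was left out. ChIP depth limits the order of genes whose read intervals overlap.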

Other observations

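The members closest to the 20 kb limit from inside were at XPC (19.6 kb beyond the span, fold 13.8), SESN2 (11.2 kb, fold 21.1) and DDB2 (9.38 kb, fold 32.6). Outside it, between 20 and 50 kb, there were 7 peaks, the nearest at 29.6 kb: 4 at DDB2, with folds of 5.66 to 15.5, 2 at PCNA, with folds of 9.76 and 10.49, and 1 at SESN2, with a fold of 8.02. The gap between 19.6 and 29.6 kb held no peak at any of the 8 genes. POLH, RRM2B, XPC, SESN1 and FDXR had none between 20 and 50 kb.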
